A study of Mus musculus with 3 samples.

Results

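The cells described here are resident-type macrophages of the mouse ventricle, which were 2291 of the 18021 cells in the series. They were chosen by counts of marker transcripts (unique molecular identifiers, UMIs). A cell belonged when its UMIs of Csf1r, Adgre1, Mrc1, C1qa, C1qb and C1qc together came to at least 3 and to at least 2 times its UMIs of Ptprb, Flt1, Pdgfra, Dcn and Abcc9. It also needed at least 3 UMIs of F13a1, Cd163, Timd4 and Lyve1 together, and at most 3 UMIs of the cycling genes Top2a, Mki67, Cenpf, Cenpe, Aspm and Kif11. Since these counts picked the cells, the levels of these 21 genes are given as a description and carry no test. Cells that met the other conditions with at most 2 UMIs of the resident genes numbered 273. They are called other macrophages, a name that rests on the rule alone. All remaining cells, 15457, are called cells outside the gate.

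RNA was counted per droplet with the 10x Genomics platform in ventricular tissue of C57B6 mice that had been kept frozen, in a study concerned with drugs against cardiac fibrosis and with MD2 as a target. The groups were TAC with artesunate (TAC+ART), TAC with vehicle (TAC) and Sham with vehicle (Sham), where TAC stands for surgical constriction of the transverse aorta, against which the left ventricle must pump. Artesunate is an antimalarial drug of the artemisinin family. Each group was 1 library of 3 pooled hearts, so the hearts cannot be told apart and no test between the groups was possible. The sources used here give neither dose, age, time after surgery, nor whether whole cells or nuclei were loaded.

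Resident macrophages settle in the heart before and around birth, renew themselves largely in place, and clear dying cells and debris. In mouse hearts they are usually told by the phosphatidylserine receptor TIM-4 (Timd4), the hyaluronan receptor LYVE1 (Lyve1) and the haemoglobin scavenger receptor CD163 (Cd163), with low levels of the monocyte chemokine receptor CCR2. Coagulation factor XIII A (F13a1) is a transglutaminase that macrophages store, and the mannose receptor (Mrc1) takes up glycoproteins. Monocytes recruited from blood after injury tend to carry Ccr2 and more of the antigen-presenting MHC class II genes.

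Pdgfc had the highest ratio of TAC+ART over TAC among the genes that could be named under the limits given below. Its promoter window and those of the genes that lead the selection are shown as the reference sequence upstream of the transcripts counted below. They come from RefSeq on GRCm38.p6, each running from 250 bases before to 50 bases after a start site, 5′ to 3′ on the gene's strand. Of 6 genes looked up, 4 matched, and F13a1 has 2 start sites. Capitals mark the letters GAGGAAGT, a PU.1 (ETS) motif, and TGCTGA, a MAF motif, searched on both strands, and neither overlaps the other in these windows.
F13a1, first start, minus strand, chr13:37050195-37050494: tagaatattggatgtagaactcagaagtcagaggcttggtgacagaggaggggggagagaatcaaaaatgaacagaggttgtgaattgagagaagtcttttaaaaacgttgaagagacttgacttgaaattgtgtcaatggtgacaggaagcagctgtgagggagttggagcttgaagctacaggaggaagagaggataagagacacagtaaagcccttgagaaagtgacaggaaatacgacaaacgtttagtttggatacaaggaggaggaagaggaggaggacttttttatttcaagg
F13a1, second start, minus strand, chr13:37049164-37049463: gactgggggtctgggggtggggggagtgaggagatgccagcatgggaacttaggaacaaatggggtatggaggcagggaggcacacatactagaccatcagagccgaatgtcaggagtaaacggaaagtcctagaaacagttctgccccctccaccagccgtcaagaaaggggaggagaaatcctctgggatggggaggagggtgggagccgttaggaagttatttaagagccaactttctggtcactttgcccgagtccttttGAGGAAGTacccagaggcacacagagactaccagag
Cd163, plus strand, chr6:124304401-124304700: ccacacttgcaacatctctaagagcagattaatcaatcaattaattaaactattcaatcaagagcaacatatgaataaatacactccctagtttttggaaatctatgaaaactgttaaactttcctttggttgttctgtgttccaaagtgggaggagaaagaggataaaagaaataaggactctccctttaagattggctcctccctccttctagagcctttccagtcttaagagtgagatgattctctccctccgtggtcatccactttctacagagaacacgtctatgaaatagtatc
Timd4, plus strand, chr11:46810549-46810848: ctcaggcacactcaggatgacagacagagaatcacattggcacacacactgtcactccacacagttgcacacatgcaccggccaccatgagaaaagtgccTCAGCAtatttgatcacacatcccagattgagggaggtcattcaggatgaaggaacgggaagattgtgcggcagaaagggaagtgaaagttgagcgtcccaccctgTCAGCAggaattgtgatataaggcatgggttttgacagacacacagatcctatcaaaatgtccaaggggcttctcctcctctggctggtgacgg
Pdgfc, plus strand, chr3:81036166-81036465: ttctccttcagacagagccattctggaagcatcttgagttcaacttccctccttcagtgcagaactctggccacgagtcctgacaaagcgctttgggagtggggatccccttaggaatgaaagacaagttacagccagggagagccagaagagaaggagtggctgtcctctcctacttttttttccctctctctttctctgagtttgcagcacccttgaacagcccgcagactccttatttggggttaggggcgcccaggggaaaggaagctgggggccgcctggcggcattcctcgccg
The PU.1 letters stood 14 bases after the second F13a1 start, and 3.20% of 32851 promoter windows of the same length hold them. The MAF motif stood in the Timd4 window on the minus strand, at 150 and 44 bases before the start, printed as its reverse complement. That motif is present in 19.5% of the windows, and neither set of letters is in the Cd163, Pdgfc or first F13a1 window. A match describes the letters only.

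The share of resident-type macrophages was highest in the TAC library. They were 859 of 6856 cells in TAC+ART (12.5%, 95% Clopper-Pearson interval 11.8 to 13.3), 1141 of 7413 in TAC (15.4%, 14.6 to 16.2) and 291 of 3752 in Sham (7.76%, 6.92 to 8.66). The log2 ratio of these shares was -0.30 (interval -0.42 to -0.18) for TAC+ART over TAC and 0.99 (0.81 to 1.17) for TAC over Sham. All intervals are 95% intervals for counting error and leave out differences between hearts and preparations. Among gated macrophages, resident-type cells made up 91.8% in TAC+ART, 87.6% in TAC and 89.5% in Sham. That share lay within a narrow range, with log2 ratios of 0.07 (0.03 to 0.11) for TAC+ART over TAC and -0.03 (-0.09 to 0.03) for TAC over Sham. When cells with any UMI of the 5 genes of other cell classes were also left out, 16, 18 and 69 cells stayed in TAC+ART, TAC and Sham and the TAC over Sham ratio of shares of all cells turned to -2.92. The fibroblast gene Dcn, one of those 5, was seen in 95.9%, 95.2% and 62.2% of resident-type macrophages in TAC+ART, TAC and Sham, and in 98.0%, 98.0% and 80.4% of cells outside the gate.

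Resident-type macrophages held 4285794 UMIs in TAC+ART, 6053559 in TAC and 1386072 in Sham, with medians of 4698, 5050 and 4310 UMIs per cell. Other macrophages were shallower, with medians of 3591, 3778 and 3109 in the same order of libraries, and cells outside the gate had 4518, 4793 and 4327. RNA of other cell types was present in the cells. Summed over 10 cardiomyocyte markers, resident-type macrophages had 5593, 5604 and 5125 counts per 1000000 UMIs (CPM) in TAC+ART, TAC and Sham, against 10940, 8910 and 12167 CPM outside the gate. Summed over 8 fibroblast markers they had 1785, 1449 and 828 CPM, and all markers of both lists were detected in each library. Of 10 T or NK cell markers, 4 were at 0 in TAC+ART, none in TAC and 7 in Sham, with summed levels of 4.90, 15.0 and 6.49 CPM. The 10 monocyte markers summed to 154, 168 and 102 CPM, against 281, 475 and 181 CPM outside the gate. Of cell barcodes, 27 were shared by TAC+ART and TAC, 1 of them resident-type in both, and 20 by each of the other pairs of libraries.

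F13a1 carried the selection. It made up 83.9% of the 4 resident genes' UMIs in TAC+ART, 82.9% in TAC and 87.9% in Sham, and only 4, 3 and 3 members had no F13a1 UMI. Its level was 6590 CPM in TAC+ART, 4974 CPM in TAC and 7056 CPM in Sham, against 146, 132 and 151 CPM in other macrophages. F13a1 was therefore lowest in the TAC library. It was also seen in 27.3%, 25.5% and 16.3% of cells outside the gate, at 198, 165 and 137 CPM. Members with F13a1 as their sole resident gene were 10.5% in TAC+ART, 18.7% in TAC and 20.3% in Sham. Cells at the edge of the resident sum were few, with a sum of exactly 3 in 14, 25 and 5 members. A sum of 2 was seen in 19, 33 and 7 macrophages just outside. The limit on genes of other cell classes alone kept out more, 262, 294 and 81 cells in TAC+ART, TAC and Sham.

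The other resident genes split the cells. Cd163 stood at 846 CPM in TAC+ART, 676 CPM in TAC and 602 CPM in Sham, with a UMI in 75.6%, 62.6% and 64.9% of members and in 9.22%, 7.89% and 3.44% of cells outside the gate. Timd4, which lets macrophages bind the phosphatidylserine of dying cells, stood at 188 CPM in TAC+ART, 77.0 CPM in TAC and 202 CPM in Sham. TAC was the low library for Timd4, at log2 1.29 (1.12 to 1.46) for TAC+ART over TAC and -1.39 (-1.61 to -1.17) for TAC over Sham. The share of members with a Timd4 UMI was 42.4% in TAC+ART, 22.6% in TAC and 45.0% in Sham, against 2.89%, 1.44% and 1.63% outside the gate, and after thinning each cell to 2000 UMIs it was 25.8%, 11.6% and 27.3%. Thinning left out 13, 11 and 16 shallower members, and 1.47%, 0.550% and 0.868% of thinned cells outside the gate had a Timd4 UMI. Lyve1 ran otherwise, with 234 CPM in TAC+ART, 272 CPM in TAC and 164 CPM in Sham and a UMI in 48.2%, 52.0% and 36.8% of members and in 12.5%, 15.7% and 7.12% of cells outside the gate. Lyve1 was lowest in Sham, as it was outside the gate at 42.3, 63.3 and 25.4 CPM. Mrc1 stood at 3048 CPM in TAC+ART, 2084 CPM in TAC and 2675 CPM in Sham, and in other macrophages at 1349, 999 and 1482 CPM. Mrc1 is one of the genes that admitted both kinds of macrophage.

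**Figure D1:**
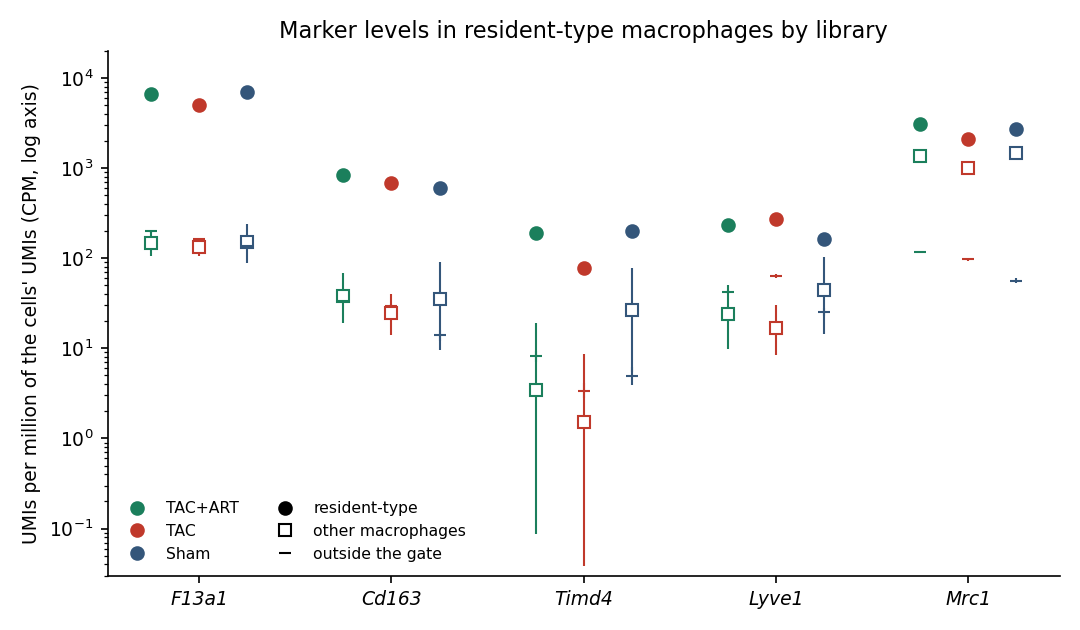
Level of 5 marker genes in CPM on a log axis, with filled circles for resident-type macrophages, open squares for other macrophages and dashes for cells outside the gate. Bars are 95% Poisson intervals for counting error, and Timd4 in resident-type cells stands at 188 CPM in TAC+ART, 77.0 CPM in TAC and 202 CPM in Sham.

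The remaining genes of the macrophage condition were the classical macrophage genes. Csf1r, the receptor for the growth factor CSF1, was at 560 CPM in TAC+ART, 494 CPM in TAC and 439 CPM in Sham, and Adgre1 (F4/80) at 763, 902 and 690 CPM. The complement subunits were higher in both TAC libraries than in Sham. C1qa was at 627, 746 and 352 CPM, C1qb at 490, 626 and 269 CPM and C1qc at 513, 558 and 285 CPM in TAC+ART, TAC and Sham. Outside the gate the log2 ratios of TAC over Sham for the 3 subunits were larger, at 1.74, 2.19 and 1.75, against 1.08, 1.22 and 0.97 in the members.

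**Figure D2:**
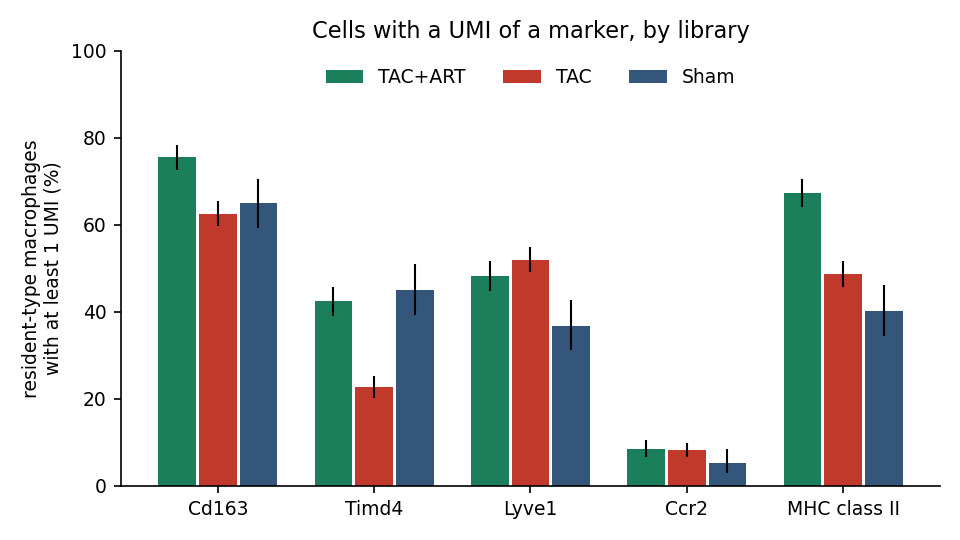
Percentage of resident-type macrophages with at least 1 UMI of a marker, where MHC class II stands for any of H2-Aa, H2-Ab1 and H2-Eb1. Bars start at 0 and error bars are 95% Clopper-Pearson intervals, and the MHC class II share is 67.3% in TAC+ART, 48.6% in TAC and 40.2% in Sham.

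Members with Timd4 differed from members without it inside every library. Ccr2 stood at 14.3 CPM in members with a Timd4 UMI and 117 CPM in those without in TAC+ART, at 13.4 and 61.1 CPM in TAC, and at 14.4 and 60.5 CPM in Sham. The MHC class II activator Ciita showed the same order, with 52.6 and 123 CPM in TAC+ART, 27.4 and 84.5 CPM in TAC and 30.3 and 87.9 CPM in Sham. H2-Eb1, an MHC class II beta chain, had 155 and 287 CPM, 54.2 and 152 CPM, and 69.3 and 147 CPM. Vsig4, a complement receptor of resident macrophages, was higher with Timd4, at 214 and 92.3 CPM in TAC+ART, 158 and 87.9 CPM in TAC and 207 and 99.5 CPM in Sham. Cells with a Timd4 UMI were deeper, with medians of 5117 against 4336 UMIs in TAC+ART, 6042.5 against 4753 in TAC and 5003 against 3888 in Sham, and the part of depth in these differences was not tested.

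Resident-type macrophages were set against the other macrophages of the same library, with the 3 libraries as replicates of this contrast and the 21 genes of the rule left out. The other macrophages were few, 77 in TAC+ART, 162 in TAC and 34 in Sham. By edgeR's quasi-likelihood test with Benjamini-Hochberg adjustment at 0.05, 430 of 10998 genes were higher in resident-type macrophages (3.91%) and 409 were lower (3.72%). Of these, 420 and 371 pointed the same way in all 3 libraries. The counts depended on the libraries, since leaving out TAC gave 183 higher and 212 lower, leaving out TAC+ART gave 208 and 178, and leaving out Sham gave 603 and 601. The summed cardiomyocyte markers were lower in resident-type than in other macrophages, at 5593 against 11320 CPM in TAC+ART, 5604 against 9421 CPM in TAC and 5125 against 11244.5 CPM in Sham. Summed monocyte markers were lower too, at 154 against 572, 168 against 553 and 102 against 745 CPM in the same order. Lymphatic endothelial markers stood at 112 against 496, 173 against 129 and 55.6 against 1083 CPM. Outside the gate these markers had 489, 794 and 394 CPM, so other macrophages lay above that level in TAC+ART and Sham. B cell markers were higher in resident-type macrophages, at 1169 against 638, 767 against 461 and 1322 against 657 CPM. Bank1 alone gave 847, 577 and 900 CPM of the resident-type sums in TAC+ART, TAC and Sham. The part of all these markers in the contrast was not tested. The genes tested were measured in the same cells that the rule had split.

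Genes of the resident programme, a list of genes known from tissue macrophages, were tested singly and their calls counted, with no test of the list. The list was written with earlier results of these data known. Of its 30 tested genes, 22 rose in the edgeR test and the others did not pass, with a median log2 fold change of 1.29 against -0.0048 over all tested genes. Folr2, a folate receptor of resident macrophages, had 139 CPM in resident-type and 10.4 CPM in other macrophages of TAC+ART, 102 and 26.0 CPM in TAC, and 102 and 26.6 CPM in Sham (log2 2.45, adjusted p = 1.8e-05, edgeR). Colec12, a scavenger receptor, had 802 and 76.3 CPM, 518 and 78.1 CPM, and 926 and 204 CPM (log2 2.86, adjusted p = 2.22e-08, edgeR). Both genes were higher in resident-type macrophages of each library. Gas6, which bridges dying cells to the receptors MERTK and AXL, was higher at log2 1.72, and Mertk itself at log2 1.03, while Axl was lower at log2 -1.39. Maf, a transcription factor of resident macrophages, was higher at log2 1.30, Stab1, a scavenger receptor, at 1.41, Nrp1, a co-receptor for VEGF and semaphorins, at 1.29 and the growth factor Igf1 at 0.83. Vsig4 had 634, 642 and 212 UMIs in resident-type and 0, 10 and 3 UMIs in other macrophages of TAC+ART, TAC and Sham.

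Growth factors went both ways. Of 29 tested, Bmp2, Pdgfc, Sema6d, Timp2 and Igf1 rose and Fgf13, Vegfa, Nrg1 and Pdgfb fell. Pdgfc, a ligand of the PDGF receptor of fibroblasts, had 910 CPM in resident-type and 90.1 CPM in other macrophages of TAC+ART, 181 and 44.4 CPM in TAC, and 404 and 35.5 CPM in Sham (log2 2.88, adjusted p = 1.79e-07, edgeR). Of 9 tested MS4A family genes, Ms4a4a, Ms4a6b, Ms4a6c and Ms4a6d rose, and of 35 lysosomal genes 8 rose, among them the proteases Ctsb, Ctsc and Lgmn.

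Some genes of antigen presentation and of recruited monocytes were lower in resident-type cells. Of 13 tested MHC class II genes, Ciita, H2-Eb1, H2-Ab1, H2-Aa and H2-DMb1 fell and Lgmn rose. H2-Aa had 287 CPM in resident-type and 641 CPM in other macrophages of TAC+ART, 170 and 681 CPM in TAC, and 124 and 470 CPM in Sham (log2 -1.60, adjusted p = 2.41e-06, edgeR). Of 19 recruited monocyte-derived genes, 7 fell, Itgal, Napsa, Ccr2, Spn, Cx3cr1, Plbd1 and Cd52, and 2 rose, the chemokine Ccl9 and the lysozyme Lyz2. Ccr2 had 70.2 and 381 CPM in TAC+ART, 48.7 and 349 CPM in TAC, and 37.5 and 710 CPM in Sham (log2 -2.95, adjusted p = 1.06e-07, edgeR). With edgeR, Ly96, Tlr4 and Cd14 did not pass, at log2 0.61, 0.35 and -0.60 and adjusted p = 0.193, 0.296 and 0.258.

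The lowest genes by fold change included Itgax (CD11c), Sirpb1a, the adaptor Grap2, Sh2d1b1, Tnfsf8, Tm4sf19, the elastase Mmp12, the cytokine Il7, Klrk1, Pbld1, 5430437J10Rik and Schip1. Grap2 had 6.30 CPM in resident-type and 118 CPM in other macrophages of TAC+ART, 4.96 and 123 CPM in TAC, and 8.66 and 97.6 CPM in Sham. Itgax had 9, 8 and 1 UMIs in resident-type and 13, 21 and 5 UMIs in the far smaller pool of other macrophages. The highest included Plekhg5, with 472 and 41.6 CPM in TAC+ART, 320 and 36.8 CPM in TAC, and 473 and 62.1 CPM in Sham. Maoa (monoamine oxidase A), Gm49144 and Gm30489 were among them too. With F13a1 taken out of the rule several differences were smaller, at log2 1.54 against 3.28 for Plekhg5, 1.25 against 3.29 for Maoa, 1.08 against 4.90 for Gm49144 and 1.88 against 3.39 for Vsig4. Several others rested on almost no UMIs in other macrophages. Gm13274 and Gm47675 had 196 and 131 UMIs in resident-type macrophages and 0 in others, which set at the floor of 3 counts over the 3 libraries made them at least 5.87-fold and at least 3.93-fold higher. Bmp2 had 236 UMIs against 2, a ratio of 10.6 (interval 2.90 to 88.1), and Gm16000 370 against 3, a ratio of 11.1 (3.76 to 54.0). Chp2, Tnfrsf25 and St6galnac5 had 1 UMI each in other macrophages. With DESeq2, Gm47675, Chp2, Tnfrsf25, St6galnac5 and Bmp2 did not pass.

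**Figure D3:**
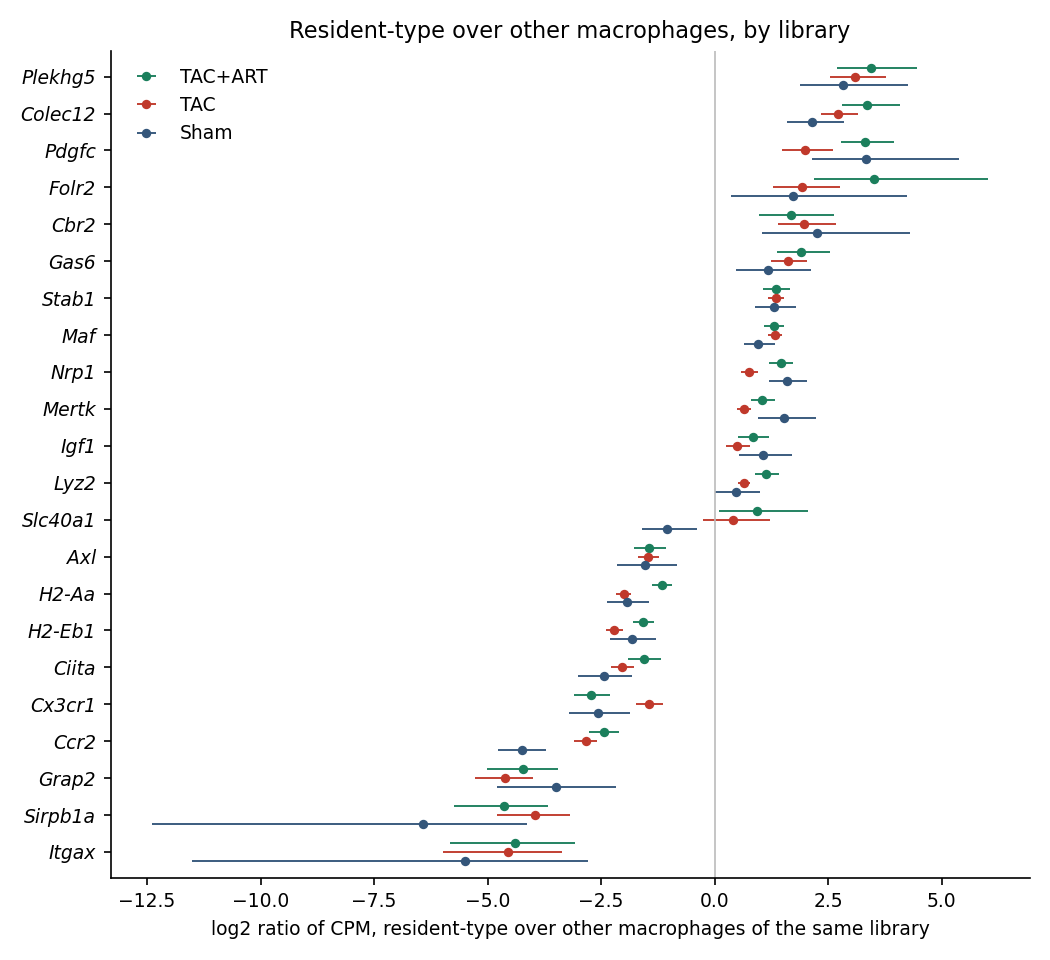
Log2 ratio of CPM in resident-type over other macrophages of the same library for 22 genes, with 1 point per library and 95% intervals for counting error. Colec12, Pdgfc and Folr2 lie right of 0 in all 3 libraries, Ccr2, Grap2 and Itgax lie left of 0, and Slc40a1 lies right of 0 in TAC+ART and left in Sham.

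For artesunate, resident-type macrophages of TAC+ART were compared with those of TAC. Each side is 1 library, and a gene entered the count with at least 50 UMIs over the pair of libraries and at least 50 CPM in 1 of them. Of 4351 such genes, 62 were 2-fold or more higher in TAC+ART (1.42%) and 42 were 2-fold or more lower (0.965%). With median-of-ratios scaling these counts were 77 and 30, so that 72.0% of them were higher, against 59.6%. The median log2 ratio over all these genes was -0.08, and the comparison shares the TAC library with the one against Sham.

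Pdgfc showed the highest ratio among the 3960 of these genes that could be named under the limits given with the processing. It had 910 CPM in TAC+ART, 181 CPM in TAC and 404 CPM in Sham. Its log2 ratio was 2.33 (2.24 to 2.43) for TAC+ART over TAC and -1.16 (-1.31 to -1.01) for TAC over Sham. A Pdgfc UMI was seen in 75.4% of members in TAC+ART, 33.8% in TAC and 47.1% in Sham, and in 64.3%, 21.3% and 37.1% after thinning. Outside the gate Pdgfc stood at 42.1, 29.8 and 20.5 CPM, so the members held the higher level in every library. In members with and without Timd4 alike Pdgfc was higher in TAC+ART than in TAC, by log2 2.10 and 2.32. Clec7a, the beta-glucan receptor Dectin-1, had 71.9 CPM in TAC+ART and 20.5 CPM in TAC (log2 1.81), Clec4b1, a C-type lectin, 70.5 and 20.3 CPM (log2 1.79), and Iigp1, an interferon-induced GTPase, 80.5 and 20.0 CPM (log2 2.01). Iigp1 was higher outside the gate, at 126 and 52.8 CPM (log2 1.26). Rgl1, a Ral exchange factor, had 677 and 222 CPM (log2 1.61). Gm16000, Kctd16, Abcd2, Gpr155, Slc7a15, Zfp810 and Per3 completed the 12 highest, at log2 1.51 to 2.09.

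Among the 12 lowest was Pde3b, a cyclic nucleotide phosphodiesterase, with 338 CPM in TAC+ART, 1093 CPM in TAC and 336 CPM in Sham (log2 -1.69 for TAC+ART over TAC, -1.78 to -1.61). The kinase Stk17b had 147, 501 and 203 CPM in the same order (log2 -1.77). Both were highest in TAC, and outside the gate their log2 ratios for TAC+ART over TAC were -1.16 and -0.87. Fat3, an atypical cadherin, had 9.10 CPM in TAC+ART and 54.2 CPM in TAC (log2 -2.56), while outside the gate its ratio was 1.08. The transcription factor genes Cebpb and Fosl2 stood at 30.6 and 98.6 CPM (log2 -1.69) and at 19.6 and 73.8 CPM (log2 -1.91). The clock gene Arntl, at 15.9 and 57.7 CPM, had log2 -1.85 in the members and -1.94 outside the gate. Hsph1, Dnaja1, Btg2, Xylt1, Slc24a3 and Nppa were the others, at log2 -1.64 to -1.93.

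**Figure D4:**
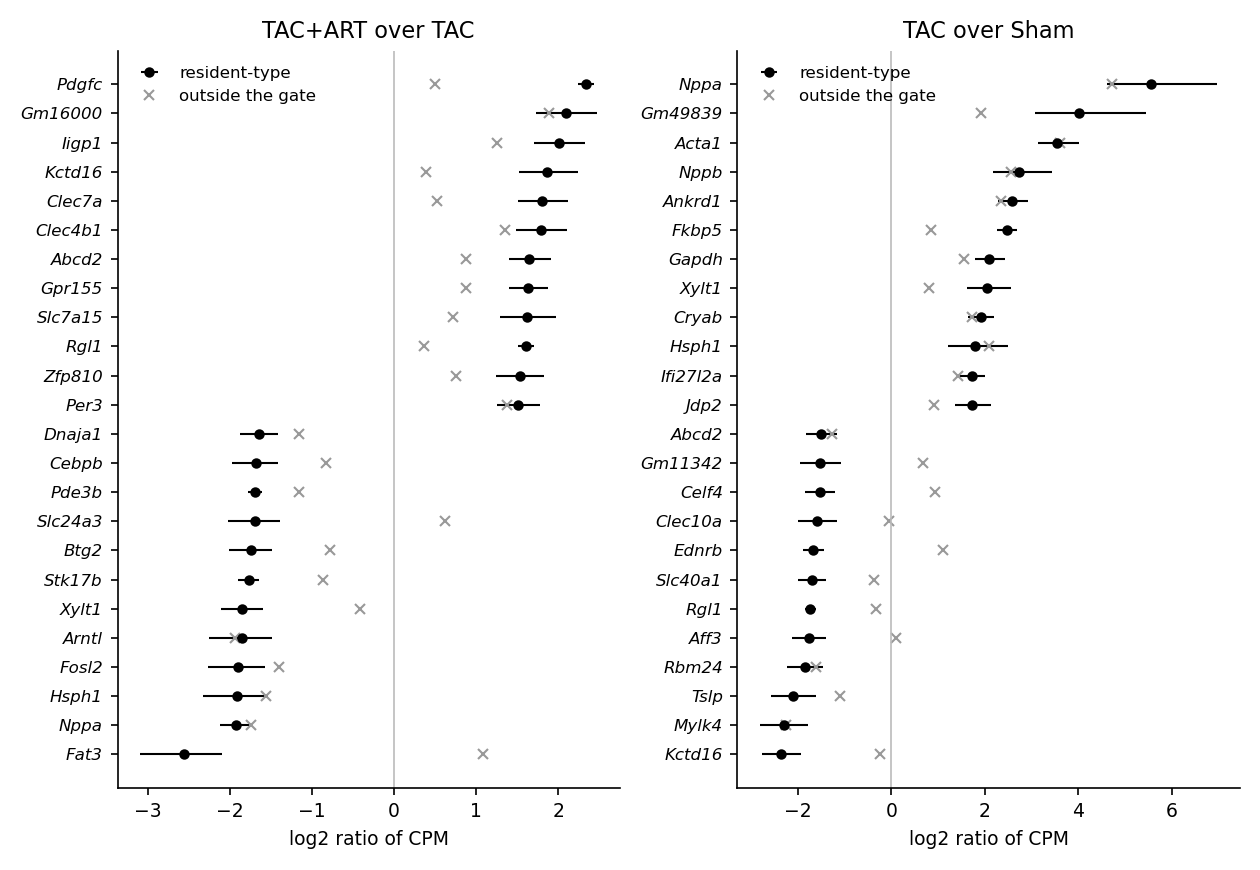
Log2 ratio of CPM for the 12 highest and 12 lowest genes of resident-type macrophages in TAC+ART over TAC (left) and TAC over Sham (right), with 95% intervals for counting error. Grey crosses are the ratios outside the gate, which lie near those of the members for Nppa, Acta1 and Arntl and far from them for Pdgfc and Ednrb.

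Gene lists were read by their counts. Of 26 resident programme genes tested, 1 was past 2-fold higher in TAC+ART and none was lower, with a median log2 of 0.24 against -0.08 over all genes tested. That 1 gene was Clec10a, a C-type lectin, with 51.8 CPM in TAC+ART, 20.6 CPM in TAC and 62.0 CPM in Sham. Nrp1 had 1264, 645 and 1369 CPM, just short of 2-fold at log2 0.97 for TAC+ART over TAC. Igf1 followed the same order with 463, 286 and 511 CPM. Of 9 MHC class II genes tested none was past 2-fold, with a median log2 of 0.38 beside 0.20 outside the gate. In TAC over Sham their median was 0.30 beside 0.91 outside the gate. H2-Eb1 was at 227 CPM in TAC+ART, 127 CPM in TAC and 108 CPM in Sham, and H2-Aa at 287, 170 and 124 CPM. The cysteine protease Ctss and the maturation gene Cd83 of that list lay the other way, at log2 -0.59 for each in TAC+ART over TAC.

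Of 11 immediate early and heat shock genes, 5 were past 2-fold lower in TAC+ART and none higher, with a median log2 of -0.99, and outside the gate the median over these genes was -0.79. Of 6 MS4A genes, Ms4a4a was past 2-fold lower, with 190 CPM in TAC+ART, 421 CPM in TAC and 169 CPM in Sham. Of 15 lipid-associated genes, Plin2, which coats lipid droplets, was past 2-fold lower at 58.8, 133 and 86.6 CPM. Of 8 clock genes 3 were past 2-fold higher, Per3, Dbp and Tef, and 1 lower, Arntl. Outside the gate the log2 ratios of Per3, Dbp and Tef were 1.38, 1.11 and 1.21, beside 1.51, 1.34 and 1.25 in the members. Of 16 complement and Fc receptor genes, 10 recruited genes and 15 genes of the TLR4 and MD2 pathway none was past 2-fold. Ly96, which encodes MD2, stood at 75.8 CPM in TAC+ART, 73.2 CPM in TAC and 64.9 CPM in Sham, with a UMI in 27.2%, 26.6% and 24.7% of members and in 7.62%, 7.97% and 6.16% of cells outside the gate. Tlr4 stood at 185, 188 and 175 CPM and Cd14 at 34.1, 45.1 and 18.8 CPM. The interval of Ly96 for TAC+ART over TAC ran from -0.16 to 0.26 and that of Tlr4 from -0.15 to 0.11.

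Pressure load was read from TAC against Sham. Of 4531 genes with enough UMIs, 222 were 2-fold or more higher in TAC (4.9%) and 132 were 2-fold or more lower (2.91%), with a median log2 ratio of 0.01. This balance depended on the genes and cells counted. With a floor of 10 UMIs and none on CPM, 1050 were higher and 1456 lower, and in cells with 0 UMIs of the 5 other-class genes 88 were higher and 117 lower. With a floor of 100 UMIs and 100 CPM, 153 were higher and 58 lower, and without cells over 8000 UMIs 215 were higher and 95 lower. Fkbp5, a co-chaperone of the glucocorticoid receptor, had 723 CPM in TAC and 131 CPM in Sham (log2 2.46, 2.25 to 2.69), and 514 CPM in TAC+ART. Outside the gate its ratio for TAC over Sham was 0.85. Of 12 glucocorticoid-induced genes, Fkbp5, Tsc22d3 and Mt1 were past 2-fold higher and none lower. Jdp2, an AP-1 repressor, had 147 and 44.0 CPM (log2 1.73) and Ifi27l2a, an interferon-induced gene, 303 and 90.9 CPM (log2 1.73), while of 13 interferon response genes none was past 2-fold in TAC over Sham and their median was -0.37. Xylt1, Gapdh, Hsph1 and Gm49839 were also among the 12 highest, at log2 1.79 to 4.02. Outside the gate the ratios of these 4 were 0.81, 1.56, 2.10 and 1.92, and those of Jdp2 and Ifi27l2a 0.92 and 1.43. In TAC, Gapdh stood at 0.755 times its level outside the gate.

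The 12 highest genes also held transcripts of stressed cardiomyocytes. Nppa and Nppb, the natriuretic peptide genes, had 254 and 113 CPM in TAC and 5.05 and 16.6 CPM in Sham. Acta1, Ankrd1 and Cryab had 375, 379 and 307 CPM in TAC and 31.7, 62.8 and 81.5 CPM in Sham. In TAC these 5 stood at 0.705 to 0.792 times their level outside the gate, where their log2 ratios were 4.73, 2.56, 3.61, 2.35 and 1.73. The part of cardiomyocyte RNA in these values was not tested.

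The 12 genes with the lowest ratios included a transporter and receptors. Slc40a1, the iron exporter ferroportin, had 68.8 CPM in TAC+ART, 37.3 CPM in TAC and 122 CPM in Sham (log2 -1.71 for TAC over Sham). Ednrb, the endothelin B receptor, had 183, 67.1 and 214 CPM (log2 -1.67), while outside the gate its ratio was 1.09. Clec10a had log2 -1.59 and Rgl1 log2 -1.75. Kctd16, Mylk4, Tslp, Rbm24, Aff3, Celf4, Gm11342 and Abcd2 completed the 12 lowest, at log2 -1.50 to -2.36. Mylk4 and Rbm24 stood below their level outside the gate, where their ratios were -2.26 and -1.61, and Aff3 stood below it too, with an outside ratio of 0.10. Thinning to 2000 UMIs gave Mylk4 -1.05 against -2.30 and Rbm24 -0.57 against -1.86, and leaving out cells over 8000 UMIs gave -1.17 and -0.57, so that Rbm24 was then short of 2-fold. Of 16 iron and haem genes, Slc40a1 and Tfrc, the transferrin receptor, were past 2-fold lower, and the ferritin light chain Ftl1 and Gpx4 were past 2-fold higher. Tfrc had 83.8, 54.0 and 136 CPM and Ftl1 307, 358 and 141 CPM in TAC+ART, TAC and Sham.

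Of 26 resident programme genes tested, none was past 2-fold higher in TAC and 2 were lower, Clec10a and Nrp1. Of 8 recruited genes, 5 were past 2-fold higher and none lower, Vcan, Ccl9, S100a6, Ifitm3 and Lyz2, with a median log2 of 1.34 beside 1.44 outside the gate. Lyz2 had 973, 1178 and 471 CPM in TAC+ART, TAC and Sham. Ccr2 was below the size limit for this comparison, with 301, 295 and 52 UMIs or 70.2, 48.7 and 37.5 CPM. Of 15 lipid-associated genes, 5 were past 2-fold higher and none lower, led by the apolipoprotein Apoe with 1518, 2120 and 677 CPM. The median log2 of these 15 genes was 0.73, beside 1.03 outside the gate. Of 16 complement and Fc receptor genes, 3 were past 2-fold higher, C3, C4b and the inhibitor Serping1, and none lower, with a median log2 of 0.63 beside 1.43 outside the gate. Of 6 MS4A genes, Ms4a6d and Ms4a4a were past 2-fold higher, with a median log2 of 0.96 over the 6 beside 1.67 outside the gate. Of 11 immediate early and heat shock genes 7 were higher and none lower, and of 8 clock genes 4 were lower, Rora, Dbp, Per3 and Tef, with outside ratios of -1.14, -1.51, -1.84 and -1.65. Of 15 genes of the TLR4 and MD2 pathway none was past 2-fold.

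TAC+ART was also set against Sham, and of 4414 genes 99 were 2-fold or more higher in TAC+ART (2.24%) and 39 were 2-fold or more lower (0.884%). Fkbp5 was among the 12 highest, at log2 1.97, and Slc15a2, a peptide transporter, stood at log2 1.73. Arntl was the lowest of the genes that could be named, at log2 -1.95, while outside the gate its ratio was 0.75. The 3 comparisons share libraries, so they are not independent of each other.

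**Figure D5:**
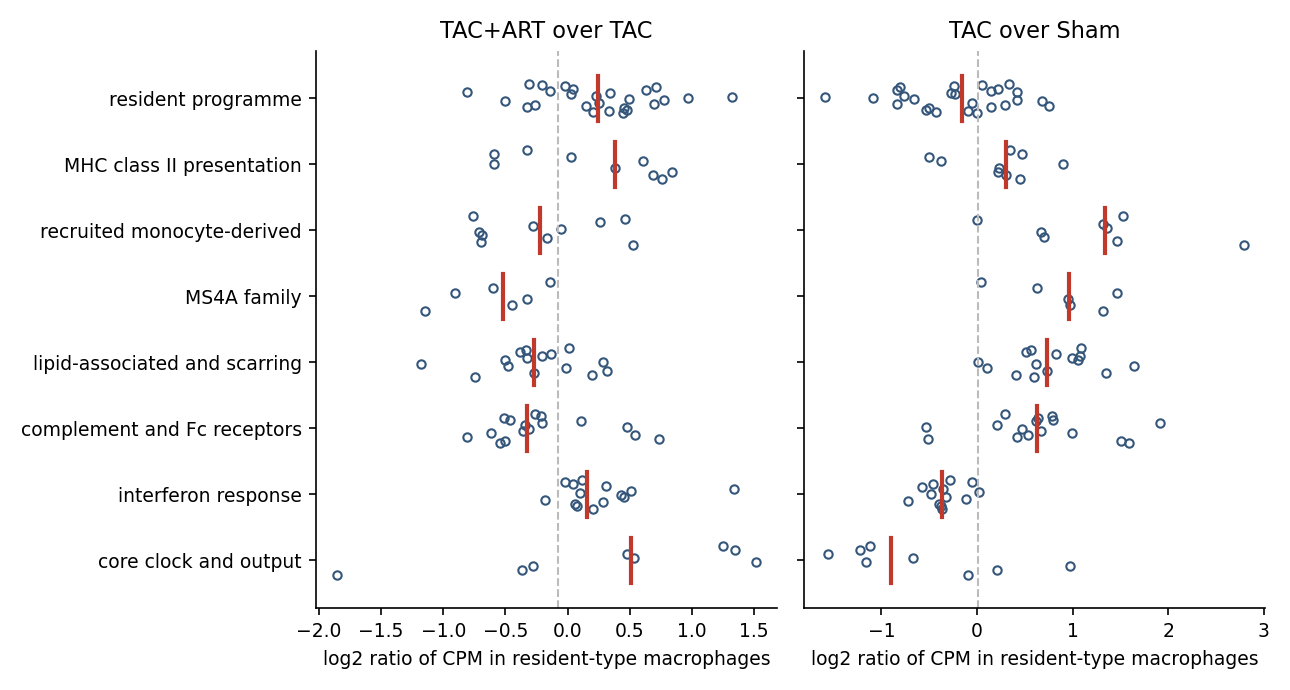
Log2 ratio of CPM in resident-type macrophages for each tested gene of 8 lists (open circles) with the list's median (red bar), in TAC+ART over TAC (left) and TAC over Sham (right). The dashed line is the median of all tested genes, and the recruited list's median is 1.34 in TAC over Sham and -0.22 in TAC+ART over TAC.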

How the data were processed

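For each of the 3 libraries the authors deposited a matrix of UMI counts, not normalized. Cell Ranger, Seurat and mm10 are named, without versions, per the submitters' processing notes. From these counts, cells were chosen by the marker rule, without clustering and without removing doublets. UMIs were summed per library and divided by the cells' total to give CPM, and log2 ratios had 0.5 counts added to each sum. Exact Poisson, Clopper-Pearson and conditional binomial intervals at 95%, and delta-method intervals for ratios of shares, cover counting error only. Sums of resident-type and other macrophages were compared in edgeR 4.0.16 (quasi-likelihood, library as a term, TMM, filterByExpr, Benjamini-Hochberg at 0.05), checked on simulated data, with DESeq2 1.42.0 as an alternative. The library term pairs both sums of a library, which come from the same hearts and run.

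Named genes were the 12 highest and 12 lowest of each comparison, the rule's genes, Ly96, Tlr4 and Cd14, and up to 4 members of each list. Genes of the rule, Malat1, sex-linked, haemoglobin, ribosomal protein and mitochondrial genes, other cell types' markers, and genes at under 0.5 times their level outside the gate were left out of the highest and lowest. The members and lists were chosen with earlier results of these data known. Alternatives covered the gate, depth, doublet scores, scaling, floors, tests and single libraries.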

Additional observations from a re-analysis of the deposited data

Results flagged for a closer look

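For 5 genes the difference between resident-type and other macrophages lay in opposite directions in different libraries, with counting intervals away from 0, and the difference between libraries was not tested in any of them. The iron exporter Slc40a1 had a log2 ratio of 0.92 in TAC+ART and -1.05 in Sham, where other macrophages held 28 UMIs. Hmox1, the haem-degrading enzyme, had 0.79 in TAC and -2.19 in Sham. Slit3 had -3.18 in TAC+ART, -1.01 in TAC and 2.81 in Sham, with 1 UMI in other macrophages of Sham, and outside the gate it stood at 411, 315 and 896 CPM in TAC+ART, TAC and Sham. Ms4a7 had 0.24 in TAC and -0.61 in Sham. Tgfbi had 0.43 in TAC+ART and -0.31 in TAC. The Sham library held 34 other macrophages.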

How the results depend on the processing

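Leaving out cells with any UMI of the 5 other-class genes gave log2 ratios of shares of all cells of -0.057 (TAC+ART over TAC) and -2.92 (TAC over Sham), and among gated macrophages -0.018 (TAC+ART over TAC). It also gave 12 genes higher and 16 lower in TAC+ART over TAC, and 88 higher and 117 lower in TAC over Sham (42.9% of them higher, against 62.7%). Against other macrophages it gave 8 higher and 2 lower. Aff3 in TAC over Sham turned to 1.75, and Fat3 and Xylt1 in TAC+ART over TAC to 0.48. Iigp1 and Per3 took that same 0.48, the value that equal counts of a gene in both libraries give. It therefore shows no reversal of Fat3 or Xylt1. The rule with 0 other-class UMIs keeps far fewer cells. A rule without F13a1 gave -0.082 for shares of all cells and 0.28 among gated macrophages in TAC+ART over TAC, and -0.12 among gated macrophages in TAC over Sham, where thinning to 2000 UMIs gave -0.13. The cause was not tested. A floor of 10 UMIs with no CPM floor gave 810 higher and 642 lower (TAC+ART over TAC) and 1050 and 1456 (TAC over Sham). A floor of 100 gave 31 and 27 in TAC+ART over TAC, and 153 higher and 58 lower in TAC over Sham. Against other macrophages, a fit with no library block gave 136 higher and 146 lower, no filter 777 higher, DESeq2 227 and 265, and leaving out 1 library 183 to 603 higher and 178 to 601 lower. Across the alternatives, 275 values of named genes in that contrast stayed past the threshold, 27 did not, none reversed, and 58 were not tested because the gene did not enter that fit; with 0 other-class UMIs 1 of 24 genes did. Values past the threshold could still be smaller, as they were for Plekhg5 and Vsig4 without F13a1. Of values for named genes between libraries, 428 kept their size, 49 moved and 3, given above, changed sign, Fat3 and Xylt1 only by that shared 0.48. No paired analysis was possible between the groups because each has 1 library, and precision is limited by 34 other macrophages in Sham.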

Other observations

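Retnla, which encodes the secreted resistin-like protein RELM-alpha and belongs to the resident programme list, lay just under the floor of 50 CPM and was named after its values were seen. It had 204 UMIs (47.6 CPM) in resident-type macrophages of TAC+ART, 12 UMIs (1.98 CPM) in TAC and 34 UMIs (24.5 CPM) in Sham. A Retnla UMI was seen in 3.96%, 0.964% and 2.41% of the cells, so few cells carried it in any library. The log2 ratio for TAC+ART over TAC was 4.53 (3.75 to 5.56), and outside the gate it was 3.03.

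A few genes of other lists, picked as the highest or lowest of their lists, were past 2-fold in TAC+ART over TAC. Of 13 channel and P2 receptor genes 1 was higher and none lower, with a median log2 of -0.039, of 5 inflammatory genes 1 was higher and none lower, and of 18 phospholipid and sterol genes 1 was higher and 2 were lower. P2ry12, a purinergic receptor, had 287 CPM in TAC+ART, 127 CPM in TAC and 278 CPM in Sham. Il16, a cytokine, had 226, 103 and 247 CPM, and the phospholipase Pla2g4a had 226, 112 and 244 CPM. Pla2g7, which breaks down platelet-activating factor, was highest in TAC, at 93.6, 244 and 102 CPM.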
